A study of Homo sapiens with 6 samples.

Results

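The positions described here are those at which eIF4B iCLIP cDNAs mapped inside the reading frame of protein-coding mRNAs, away from both ends of the frame. A position was a member when it lay on the same strand as, and within, the coding sequence (CDS) of a GENCODE v44 MANE Select transcript, more than 50 nt from the start codon and from the stop codon, and histone genes were left out. This stretch is called the inner CDS. In DoHH-2 cells, 343954 of 1179243 listed positions were members, and they carried 473543 of 2033156 cDNA counts. For GM01953 cells, 21405 of 78474 positions were members, with 38500 of 167197 counts. Together the cell lines gave 358813 different inner CDS positions.

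The study asked where eIF4B contacts RNA in a cell line from diffuse large B-cell lymphoma, DoHH-2, and in GM01953, a disease-free B-cell line; the lines are not isogenic. In the protocol 40000000 cells were irradiated with 150 mJ/cm2 UVC, the RNA was cut partially with 0.6 U RNase I, and cross-linked RNA was collected with 10 ug of an antibody to eIF4B. The paper states that replicates with few reads had been merged into 4 for DoHH-2 and 2 for GM01953. The labels name no agent or genetic change in either line. The 4 DoHH-2 and 2 GM01953 replicates were deposited as 1 pooled table per line, so no spread between replicates could be computed and no test between the lines was made. The 95% intervals below are Wilson intervals, which cover counting error only.

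eIF4B is an RNA-binding cofactor of eIF4A, the RNA helicase of the cap-binding complex, and is known mainly for helping to unwind the 5′ leader before the ribosome reaches the start codon. Elongating ribosomes read the CDS codon by codon, and the exon junction complexes that splicing leaves upstream of exon junctions are removed as they pass. In iCLIP, reverse transcription stops next to the cross-linked base, so each cDNA marks a contact at nucleotide resolution, and UV light is known to cross-link uridine more readily than other bases.

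The inner CDS positions with the most counts in DoHH-2 are given as examples, and they are extremes among the members. The sequences below are the 27 nt of mRNA, written as DNA of the GRCh38 build, around the codon that holds the listed base, and that codon is in capitals.

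ENO1, codon 152: ccggcgttcaatGTCatcaatggcggt
FAU, codon 117: aaccggcgctttGTCaacgttgtgccc
RPL5, codon 44: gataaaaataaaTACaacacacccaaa
RPL38, codon 43: agcagataccttTACaccctggtcatc
PPIA, codon 88: gaagatgagaacTTCatcctaaagcat
HSP90AA1, codon 70: gatcccagtaaaTTAgactctgggaaa
EEF2, codon 187: gagaacgtgaacGTCatcatctccacc

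Of the 10 highest DoHH-2 positions, 8 were the first base of a codon and 2 were not. The 7 windows shown are among the 8. Over all members, the first base of codons held 37.2% of DoHH-2 counts, so the windows do not stand for members in general. ENO1, the glycolytic enzyme enolase, held 131 DoHH-2 counts and 1 GM01953 count on the minus strand at chr1:8866492. FAU, which encodes ribosomal protein S30 fused to a ubiquitin-like protein, held 126 and 22 counts at chr11:65120734, and in GM01953 that base carried 66.7% of the 33 inner CDS counts of the gene. The bases of RPL5 and RPL38, both large-subunit ribosomal proteins, held 119 and 95 DoHH-2 counts and 3 and 6 GM01953 counts. PPIA, a prolyl isomerase, held 83 and 11 counts at its base, HSP90AA1, a heat-shock chaperone, 75 and 1, and EEF2, the translocation factor of elongation, 68 and 0.

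Of the other highest DoHH-2 positions, those in RPLP2 with 79 counts, at codon position 3, and in RPL4 with 71, at codon position 2, lay 3 nt and 1 nt after an exon junction. The 31 nt that follow the position occur once in the genome for each of the DoHH-2 positions named but those of RPL38 and HSP90AA1, which occur 2 times, and RPL4, which occur 3 times. The values of those 3 genes are uncertain because such reads could have been placed at a copy. Pseudogene copies were not otherwise examined.

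The highest GM01953 positions were mostly different bases. Among them were a base in C11orf24 with 20 counts in GM01953 and 0 in DoHH-2, and bases in PRDM2 and LAPTM5 with 17 counts each and 0 in DoHH-2. In C11orf24 that base carried 80% of the 25 inner CDS counts of the gene, and in EXOSC10 and WDR12 a base with 14 counts carried 82.4% of 17. GAPDH, the glycolytic dehydrogenase, had 16 counts at its highest base in GM01953 and 2 there in DoHH-2. Of the highest GM01953 positions named, those in FAU, LAPTM5 and GAPDH were at codon position 1. Those in C11orf24 and EXOSC10 were at position 2, and those in PRDM2 and WDR12 at position 3.

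Counts were spread over many positions. Of the DoHH-2 members 83.4% carried a single cDNA, and of the GM01953 members 61.6% did. Positions with at least 2 counts made up 16.6% of members in DoHH-2 and 38.4% in GM01953, although DoHH-2 has far more counts, and thinned to the GM01953 depth DoHH-2 would be expected to give 5.0%. Both lines shared 6546 positions, which are 30.6% of the GM01953 members and 1.90% of the DoHH-2 members. What set the higher repetition in the smaller library was not tested.

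The inner CDS took a similar share of each library. That share was 23.3% of DoHH-2 counts (95% interval 23.2 to 23.3) and 23.0% of GM01953 counts (22.8 to 23.2). Of the counts on MANE Select mRNAs, 43.7% and 44.5% fell there. Per kb of mRNA, however, it was sparser than every other part but the 3′ UTR. Over genes with at least 20 mRNA counts, the median density of the inner CDS relative to the whole mRNA was 0.958 in DoHH-2 and 0.967 in GM01953. In DoHH-2 there were 25.6 counts per kb of inner CDS, 57.7 per kb of 5′ UTR, 96.0 within 50 nt of the start codon, 55.0 within 50 nt of the stop codon and 17.2 along 3′ UTRs. In GM01953 these densities were 2.61, 9.54, 13.3, 5.85 and 1.2 counts per kb. Start codons were thus the densest part and 3′ UTRs the sparsest in both lines, and the inner CDS came next to last.

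DoHH-2 members lay in 9970 genes and GM01953 members in 6353. The 10 genes with the most counts held 4.19% and 4.57% of them. The B-cell labels were checked against marker mRNAs. The values are raw counts and do not rank the lines. DoHH-2 has 2033156 counts in all against 167197 in GM01953, a larger ratio than that of the CD74 or PAX5 counts. The invariant chain CD74 had 945 mRNA counts in DoHH-2 against 333 in GM01953, and the B-cell transcription factor PAX5 had 358 and 43. The surface protein MS4A1 (CD20) had 12 and 143, and CD22 had 0 and 9. All 11 T-cell, myeloid and red-cell markers looked up were at 0 in both lines. A 0 is common, however. Of 18966 genes used, the 9970 and 6353 above had inner CDS counts, and the B-cell marker CD22 was itself at 0 in DoHH-2.

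Counts departed strongly from an even spread in the bases before exon junctions. Expected counts were made by spreading the counts of each gene evenly over its inner CDS, exon ends included. Few counts at exon ends therefore raise the ratios at the other bases. In the last 10 nt of an exon, DoHH-2 had 1275 counts where 29449 were expected, a ratio of 0.043, and GM01953 had 154, a ratio of 0.064. The ratio stayed low from 11 to 20 nt upstream, at 0.041 and 0.050, and was higher from 21 to 30 nt, at 0.16 and 0.23. From 31 to 40 nt it was 0.45 and 0.64, and from 41 to 50 nt it was already above even, at 1.26 and 1.30. Between 51 and 60 nt upstream it was 1.45 and 1.41. With only positions of a deposited FDR below 0.05, the window from 21 to 30 nt had a ratio of 0.044 in DoHH-2 and 0.29 in GM01953.

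**Figure D1:**
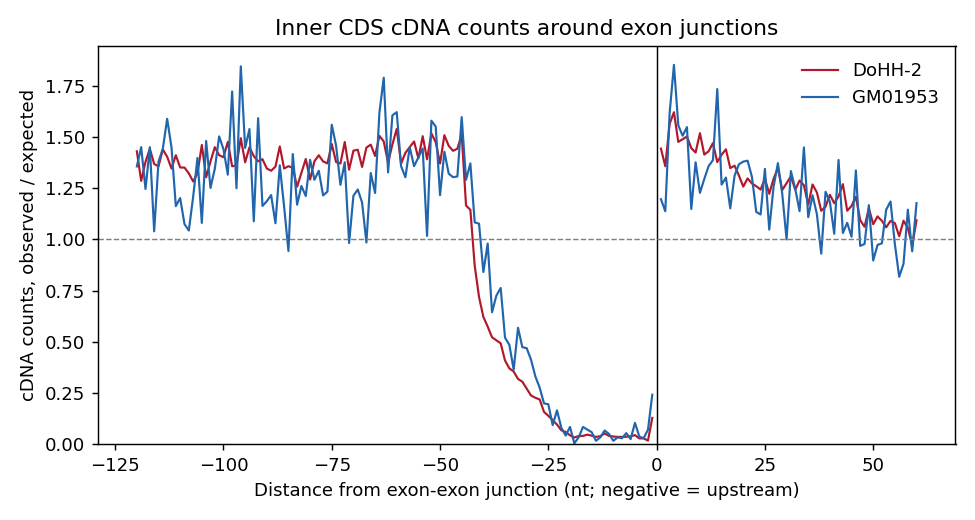
Observed over expected cDNA counts at each nucleotide from 120 nt upstream to 60 nt downstream of exon junctions (x axis, nt; negative is upstream), for DoHH-2 (red) and GM01953 (blue), with the even expectation dashed at 1. In the last 20 nt of exons both lines are at 0.104 or below, apart from the last base at 0.13 in DoHH-2 and 0.24 in GM01953; beyond 50 nt upstream DoHH-2 is above 1 at every base and GM01953 at all but 3.

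The exon after the junction showed no such gap. Its first 10 nt had 1.48 times the expected counts in DoHH-2 and 1.42 times in GM01953, and the window from 51 to 60 nt had 1.07 and 1.02 times. Bases far from junctions, over 120 nt before the next and over 60 nt after the last, or with none, were at 1.08 and 1.09. Where bases within 50 nt of the next junction were left out of the windows, these downstream windows ran from 1.5 to 1.33 in DoHH-2 and from 1.43 to 1.26 in GM01953. The expected counts were not recomputed without those bases, so part of the excess over 1 comes from the gap. Bases within 50 nt upstream of a junction make up 26.1% of the inner CDS, and 30.5% of counts were expected there in each line. They held 11.7% of the DoHH-2 counts and 13.6% of the GM01953 counts.

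The gap was found gene by gene. In DoHH-2, 996 genes had at least 100 inner CDS counts and at least 5 expected counts in the last 20 nt of their exons. All 996 were below expectation and 545 of them had no count there at all. Of 78 such genes in GM01953, chosen with at least 20 counts, 77 were below expectation and 71 had none. Over the 165870 junctions looked at, the last base of the exon had 378 DoHH-2 counts and the first base of the next exon 4235. The last base of the intron, next to that exon, had 3079, and the first base of the intron 154. In GM01953 the same 4 bases had 58, 287, 231 and 20 counts.

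The 4 junctions below show this at the level of bases, 1 each in 4 of the 5 genes with the most DoHH-2 counts and, within each gene, the junction with the most counts in the 30 nt after it. Since the junctions were picked by those counts, the high values after them are a description. Each line gives the last 30 nt of an exon or the first 30 nt of the next, and capitals mark bases with at least 1 DoHH-2 count.

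HSP90AA1 before: aaagacatattggagaaaaaagttgaaaag
HSP90AA1 after: GTGGTTGTGTCAAACCGATTGGTGaCatCt
ENO1 before: ggcaactctgaagtcatcctgccagtcccg
ENO1 after: GcGTTCAATGTCATCAatggcGgttCTcat
HSPA8 before: gCTGcTattgctTacgGcttagacaaaaag
HSPA8 after: GtTGGaGcaGAAaGAAAcGTGCtCATCTTT
TOP2B before: agacagcgtaggctacatggcttaccagag
TOP2B after: caATTTTTATaTgGtactgcaacaaagCAT

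The exon ends of HSP90AA1 (chr14:102083034-102083063), ENO1 (chr1:8867117-8867146) and TOP2B (chr3:25626772-25626801), all on the minus strand, had 0 DoHH-2 counts. Even spreading would have placed 47.7, 50.7 and 11.7 counts there. The exon starts that follow (chr14:102082415-102082444, chr1:8866472-8866501 and chr3:25626645-25626674) had 210, 195 and 49 counts. In HSPA8, the constitutive heat-shock chaperone, the exon end at chr11:123060116-123060145 had 6 counts, on the 6 bases in capitals. The exon start at chr11:123059999-123060028 had 69, against 32.5 expected in each. In GM01953 these 4 exon ends had 0 counts, and the exon starts had 5, 1, 0 and 1 counts in HSP90AA1, ENO1, TOP2B and HSPA8, where 2.19, 3.7, 0.2 and 1.9 were expected on each side, too few to show the gap at single junctions. How reads that cross an intron were mapped and counted is not given in the sources used here, and its part in the gap was not tested.

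Along the inner CDS, counts were densest near the start codon. The inner CDS of each gene was cut into 10 equal bins. The bin nearest the start codon had 1.64 times the even count in DoHH-2 (95% interval 1.63 to 1.65) and 1.95 times in GM01953 (1.91 to 1.99). The bin nearest the stop codon had 0.767 (0.760 to 0.775) and 0.652 (0.628 to 0.678). The decline was steepest over the 3 bins nearest the start codon and shallow beyond the middle. Joined in pairs of bins, the stop-codon end had 0.515 times the density of the start-codon end in DoHH-2 (95% interval 0.511 to 0.520) and 0.391 times in GM01953 (0.379 to 0.404).

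**Figure D2:**
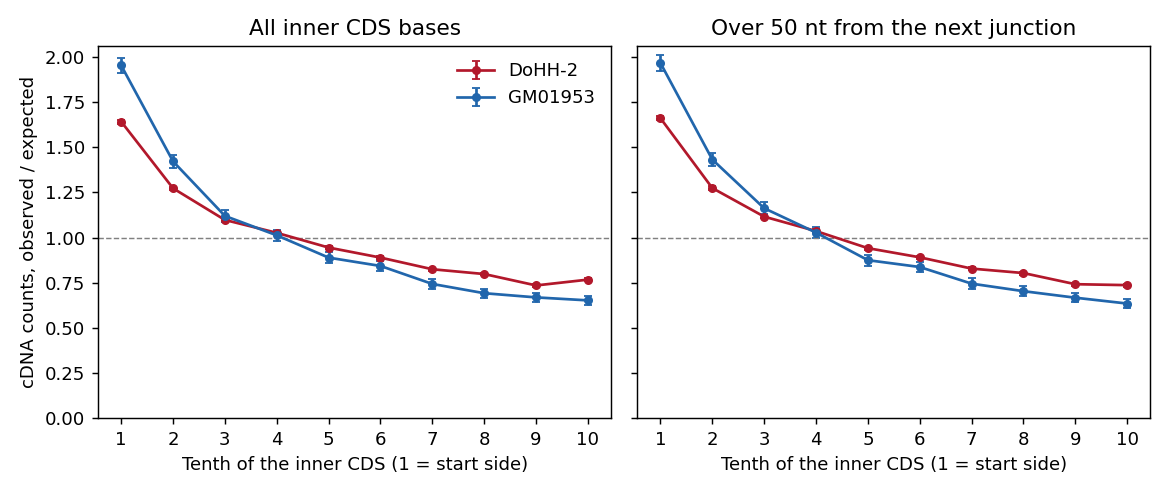
Observed over expected cDNA counts (y axis) in 10 equal bins of the inner CDS from the start side to the stop side (x axis), with 95% Wilson intervals as bars, for all bases (left) and for bases over 50 nt from the next junction (right). Bin 1 is at 1.64 in DoHH-2 and 1.95 in GM01953, and the slope is alike with and without the bases before junctions.

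The decline was also present away from exon junctions. Bases more than 50 nt from the next junction gave an end-to-end ratio of 0.504 in DoHH-2 and 0.383 in GM01953. In the 2184 genes with no junction inside the inner CDS, of which 550 had DoHH-2 counts and 297 GM01953 counts, it was 0.498 and 0.301. Counted in fixed windows, the density from 51 to 100 nt after the start codon was 1.64 and 1.84 times even, and from 451 to 500 nt it was 0.948 and 0.965. From 51 to 100 nt before the stop codon it was 0.829 and 0.706. Of the 1058 DoHH-2 genes with at least 100 counts, 868 had more counts upstream of the midpoint of their inner CDS and 180 more downstream, with a median of 60.4% upstream. Of the 298 GM01953 genes with at least 20 counts, 213 had more upstream and 74 more downstream.

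Single genes varied around this. RPL5 had 77.4% of its DoHH-2 counts upstream of the midpoint, HSPA8 72.4% and the scaffold of the cap-binding complex, EIF4G1, 72.5%. JCHAIN, which joins antibody chains into polymers, was even at 49.5%, and RPS6, a small-subunit ribosomal protein, had 47.8%. In GM01953 CD74 had 90.0% of its 120 counts upstream, against 83.8% of 272 in DoHH-2, and RPS6 had 26.9% of 78.

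In the reading frame, the first base of codons carried the most counts. It held 37.2% of DoHH-2 counts (95% interval 37.0 to 37.3), against 30.1% at the second base and 32.8% at the third. In GM01953 the shares were 39.6% (39.2 to 40.1), 27.5% and 32.9%. Against an expectation matched on the base within each gene, the first codon position had 1.18 times the expected counts in DoHH-2 and 1.25 times in GM01953, the second 0.902 and 0.829, and the third 0.934 and 0.933. Of the 1058 DoHH-2 genes with at least 100 counts, position 1 was highest in 576, position 2 in 201 and position 3 in 249, with 32 ties. In GM01953 the numbers were 134, 51 and 102 of 298, with 11 ties.

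The preference shrank as more of the surrounding sequence was matched. With the base and both its neighbours matched, position 1 had 1.05 times the expected counts in DoHH-2 and 1.07 times in GM01953. With the 6 bases from 2 nt before to 3 nt after the position matched over all genes, it had 1.02 (1.02 to 1.02) and 1.03 (1.01 to 1.04), position 2 had 0.992 and 0.977, and position 3 had 0.986 and 0.987. The matched expectations were fitted to these same counts. A frame preference that goes with particular words is therefore taken up by the match and cannot show.

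**Figure D3:**
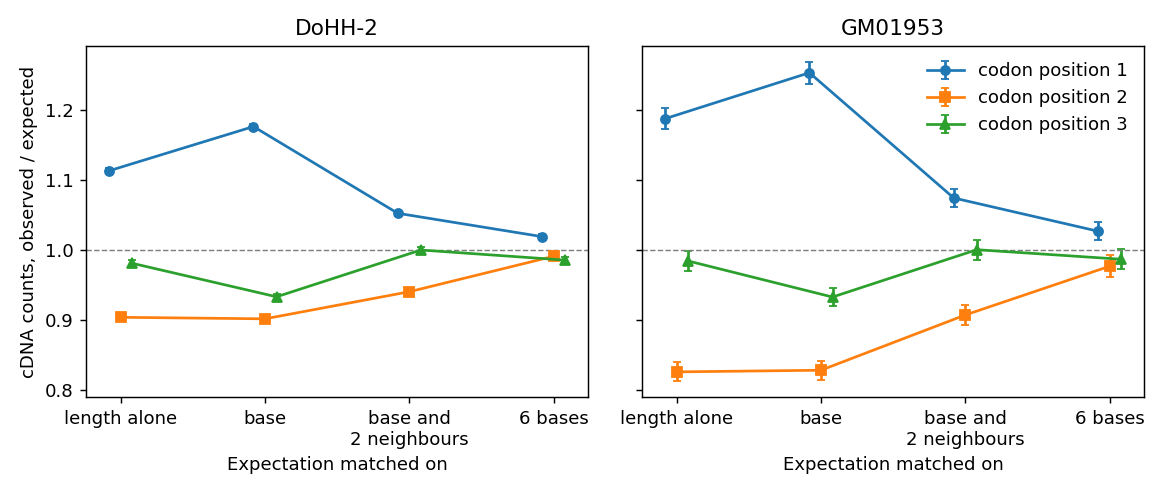
Observed over expected cDNA counts (y axis) at codon positions 1, 2 and 3 in DoHH-2 (left) and GM01953 (right), with the expectation matched on length alone, on the base, on the base and 2 neighbours, or on 6 bases (x axis); bars are 95% Wilson intervals. Codon position 1 goes from 1.18 and 1.25 with the base matched to 1.02 and 1.03 with 6 bases matched.

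The frame was most uneven for uridine. U at the first codon position had 2.44 times the expected counts in DoHH-2 and 2.79 times in GM01953. At the second position it had 1.54 and 1.42 times, and at the third 1.59 and 1.57 times. U makes up 17.0% of the bases at the first position, and 26.0% and 22.6% of those at the other positions, in that order. Adenosine was under-represented at every codon position, at 0.580, 0.447 and 0.419 in DoHH-2 and 0.489, 0.324 and 0.322 in GM01953. Guanosine at the first position was near even, at 1.03 and 1.14.

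Taken over all codon positions, the listed base was U at 1.78 times its expected share in DoHH-2 and 1.81 times in GM01953, and A at 0.484 and 0.380. The next base downstream was U at 1.82 and 1.80 times and G at 0.357 and 0.233, the largest depletion at any base from 3 nt before to 4 nt after the position. Whether the listed base or the next was the cross-linked base was not tested. All codon positions given are those of the listed base. From 3 to 5 nt downstream U was at 0.947, 1.10 and 0.836 in DoHH-2 and at 0.847, 1.05 and 0.792 in GM01953. Of the 5-base words centred on the position, UUUAC had the highest ratio in DoHH-2, at 9.03 (2773 counts where 307 were expected), and had 13.9 in GM01953. UUUAU followed in DoHH-2 at 8.14, with 11.2 in GM01953, and UUUUC at 7.55, with 8.86. GAAGG had the lowest, with 72 DoHH-2 counts and 0 in GM01953 where 84.3 were expected.

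Codons rich in U led the coding vocabulary. The phenylalanine codon UUU had 3.54 times the expected counts in DoHH-2 and 3.53 times in GM01953, the leucine codon UUA 3.04 and 3.24 times, and the second phenylalanine codon UUC 2.92 and 3.22 times. The tyrosine codon UAU followed at 2.45 and 2.92, and the isoleucine codon AUU at 2.19 and 1.96. The lowest in DoHH-2 were the arginine codon AGG at 0.392, with 0.487 in GM01953, the lysine codon AAA at 0.397 and 0.308, the serine codon AGC at 0.414 and 0.316, the glycine codon GGG at 0.421 and 0.371 and the threonine codon ACG at 0.436 and 0.449. Over the 61 sense codons the ratios of the 2 lines had a Pearson r of 0.979 and a Spearman rho of 0.973, a description across codons that share their base composition.

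Within these codons the counts kept to particular bases. In UUC the first base was at 4.61 times the expected counts in DoHH-2 and 5.65 times in GM01953, the second at 2.18 and 1.68 and the third at 1.95 and 2.33. In UAU the first base was at 4.42 and 6.21, while the second, an A, was at 1.41 and 0.978. In UUA the second base was at 4.91 and 5.68 and the third, an A, at 0.848 and 0.765. UUU was high at all of its bases, from 3.18 to 3.88 in DoHH-2. When the 6-base surroundings were matched, the 61 codons lay between 0.901 and 1.08 in DoHH-2 and, with fewer counts, between 0.813 (UGU) and 1.23 (AGG) in GM01953. The 6 bases hold the whole codon at each codon position, and the match was fitted to these same counts. Values near 1 are therefore largely fixed in advance.

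Genes were ranked by inner CDS counts. In DoHH-2 HSP90AA1 led with 3329 counts at 756 positions, followed by ACTB, cytoplasmic beta-actin, with 2499 and ENO1 with 2026. HSPA8 had 1989, TOP2B, a DNA topoisomerase, 1862, the splicing scaffold SRRM2 1668, and the ubiquitin ligase HUWE1 1653. HSP90AB1, the second cytosolic HSP90, had 1639, EEF2 1601, RPL5 1590 and JCHAIN 1518. RPS6 had 1334, PRRC2C, a stress-granule protein, 1325, EIF4G1 1282 and nucleolin, NCL, 1255. The counts of HUWE1, SRRM2 and TOP2B lay on more positions than those of HSP90AA1, at 1228, 1218 and 1058. In GM01953 ACTB led with 458, then SRRM2 with 193, gamma-actin ACTG1 with 181, EEF2 with 162 and HSP90AA1 with 153. ENO1 had 148, CD74 120, and B2M, the light chain of HLA class I, and HSPA8 had 116 each. RPL3 had 114, HSP90AB1 113, HUWE1 107, RPL5 105, GAPDH 98 and the actin-binding profilin PFN1 91.

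Counts per kb ordered the genes differently, because HUWE1 and SRRM2 have long reading frames. JCHAIN had 4059 counts per kb of inner CDS in DoHH-2, ACTB 2445, RPS6 2071, RPL5 2018 and RPL27 1777, against 127 for HUWE1. In GM01953 ACTB had 448 per kb, PFN1 287, the actin-severing cofilin CFL1 192, ACTG1 177 and RPL27 157. Without a measure of mRNA level in these tables, a high density and an abundant mRNA cannot be told apart. In raw counts, at the unequal depth of the lines, EIF4B itself had 33 in the inner CDS in DoHH-2 and 4 in GM01953. The helicase of nonsense-mediated decay, UPF1, had 83 and 12.

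The share at codon position 1 varied between genes. SRRM2 had 27.2% of its DoHH-2 counts there and 26.4% of its GM01953 counts, PRRC2C 30.2% and 27.1%, RPS6 34.0% and 23.1% and NCL 37.1% and 27.7%. EEF2 had 49.9% and 43.8%, ENO1 47.8% and 39.2% and ACTB 45.6% and 49.8%. Only 7.2% of the inner CDS of SRRM2 lies within 50 nt upstream of a junction, against 40.2% in ENO1. In those bases SRRM2 had 27 of its 1668 DoHH-2 counts and ENO1 335 of 2026.

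Gene groups differed more in density than in share. Of the 79 cytosolic ribosomal protein genes, 72 had DoHH-2 members, with 18193 counts, which is 3.84% of all inner CDS counts, and 64 had GM01953 members, with 3.54%. Over the genes with at least 20 mRNA counts, the ribosomal protein genes had a median of 485 counts per kb of inner CDS in DoHH-2, against 22.6 over all genes, and 53.0 against 9.88 in GM01953. Their median inner CDS share of mRNA counts was 44.1% in DoHH-2, against 42.5% over all genes, and 39.6% against 41.9% in GM01953. RPL3 stood at the top, with 98.8% of its 1073 DoHH-2 mRNA counts in the inner CDS. Its inner CDS makes up 85.3% of the mRNA length, against a median of 47.8% in the ribosomal protein genes and 43.2% over all genes.

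The medians that follow are again over the genes with at least 20 mRNA counts in the line. The 24 heat-shock and folding genes all had DoHH-2 members, with 2.95% of the counts, a median density of 181 per kb and a median share of 54.7%. The 16 glycolysis genes held 1.5%, with medians of 223 per kb and 48.2%. The 13 eIF3 subunits, which bridge the ribosome and the cap complex, had a median share of 57.5% in DoHH-2, and the 7 elongation factors 58.9%. In GM01953 the medians of these groups rest on 3 and 2 genes, at 68.1% and 39.3%. The 13 genes of the eIF4 group, in which poly(A)-binding proteins were included, had a median share of 41.7% in DoHH-2, over 12 of them. Of the 20 cytoskeletal genes, which held 1.61% of DoHH-2 and 2.99% of GM01953 counts, the median share was 39.7%. Of the 25 hnRNP genes, 20 had enough counts in DoHH-2 and a median of 38.1%, and the 16 nucleolar and chromatin genes had 28.2%. In GM01953 the medians were 50% for heat shock and folding, 44.8% for glycolysis, 46.6% for the eIF4 group, 36.5% for the cytoskeleton, 35.9% for hnRNPs and 21.5% for the nucleolar and chromatin genes. The inner CDS itself made up a median of 70.8% of mRNA length in the elongation factors, 60.9% in the eIF3 subunits, 40.1% in the nucleolar and chromatin genes and 38.2% in the hnRNP genes. It made up 62.1% in heat shock and folding and 66.0% in glycolysis, against 43.2% over all genes. The DoHH-2 median density relative to the whole mRNA was 0.860 and 0.778 in those 2 groups. It was 0.889 in the elongation factors and 0.977 in the eIF3 subunits, against 0.958 over all genes.

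Between the cell lines, the inner CDS share of a gene's mRNA counts was compared in the 197 genes with at least 50 mRNA counts in each line. The median share was 38.4% in DoHH-2 and 37.4% in GM01953. The share was higher in DoHH-2 by over 20 percentage points in 14 genes (7.11%) and higher in GM01953 in 11 (5.58%). In 60 genes the 95% intervals of the lines did not overlap, 28 with DoHH-2 higher and 32 with GM01953 higher. The numbers past 20 points depended on the count minimum: with at least 20 mRNA counts per line, which takes in more thinly counted genes, they were 90 and 162, and with at least 100 they were 3 and 2. Which line had more such genes also turned: 5 were higher in DoHH-2 and 10 in GM01953 with an FDR below 0.05, and 8 and 10 without the bases before junctions. Across genes the shares had a Pearson r of 0.864 and a Spearman rho of 0.853, over values that share transcript lengths.

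**Figure D4:**
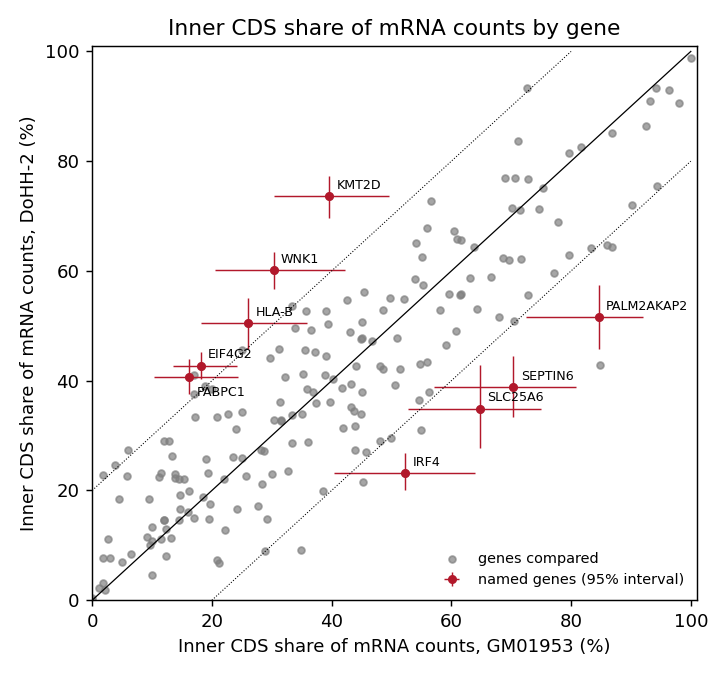
Inner CDS share of mRNA counts (%) in GM01953 (x axis) and DoHH-2 (y axis) for 197 genes (grey), with the genes named in the text in red and their 95% Wilson intervals; the solid line marks equal shares and the dotted lines a difference of 20 percentage points. KMT2D and WNK1 lie far above the line and PALM2AKAP2 and SEPTIN6 far below it.

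KMT2D, a histone methyltransferase, had 367 of 498 mRNA counts in the inner CDS in DoHH-2, or 73.7% (95% interval 69.7 to 77.4), and 38 of 96 in GM01953, or 39.6% (30.4 to 49.6). WNK1, a kinase of ion transport, had 60.1% of 785 and 30.3% of 66. A pair of translation factors came next. PABPC1, the cytoplasmic poly(A)-binding protein, had 40.8% of 898 counts in DoHH-2 and 16.2% of 105 in GM01953, and EIF4G2, a relative of EIF4G1, had 42.7% of 1474 and 18.2% of 198. HLA-B, an HLA class I heavy chain, had 50.5% of 434 and 26.1% of 92. It is one of a family of near-identical genes, so its reads may have been split. Of the genes compared, the eIF4 group had 3, of which these 2 were past 20 points, and the 26 ribosomal protein genes had 1.

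In the other direction, PALM2AKAP2 had 143 of 277 counts in the inner CDS in DoHH-2, or 51.6% (45.8 to 57.4), and 44 of 52 in GM01953, or 84.6% (72.5 to 92.0). The next values were those of SEPTIN6, a septin of the cytoskeleton, with 38.9% of 296 and 70.4% of 54. SLC25A6, a mitochondrial ADP/ATP carrier, had 34.9% of 149 and 64.7% of 68. IRF4, a transcription factor of B-cell and plasma-cell development, had 23.2% of 599 and 52.3% of 65. Each of these named genes had intervals that did not overlap, but they were picked by the size of the difference, so this is a description. The GM01953 values rest on 52 to 198 counts of a pooled library. Whether the difference exceeds the spread between replicates could not be tested.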

How the data were processed

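eIF4B iCLIP was made in 4 DoHH-2 and 2 GM01953 samples. The authors removed PCR duplicates with BBMap, demultiplexed with Je, mapped to GRCh38 with HiSat2 (named HISAT2 in the submitters' processing notes) and took cross-link sites from iCount; versions are not given in the sources used here. The deposited tables hold raw cDNA counts per position, with replicates pooled, and an FDR per position, which the authors' peak calling gives as an adjusted p-value. Total counts were 2033156 in DoHH-2 and 167197 in GM01953.

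Here, rows repeated for overlapping genes were merged to 1 per position. Listed positions were read as counting from 0, since base profiles of both strands then align, and are printed counting from 1. Of 19061 protein-coding MANE Select transcripts of GENCODE 44, 95 histone transcripts were left out and 18961 had an inner CDS. The gene given here matched the deposited gene at 99.9% of positions in both lines. Expected counts spread each gene's counts over its inner CDS, evenly or over equal bases or base triplets within the gene, or over equal 6-base surroundings pooled over genes. No test was made, since each line has 1 pooled table. Named genes were the 15 highest by counts and the 5 highest per kb per line, those of the 10 highest positions and the 5 largest share differences each way, with EIF4B, UPF1, ACTB and GAPDH. Some items that these rules select are not reported here. The members, lists and rules were chosen with earlier results of these data known. The scripts were tested on simulated data. Python 3.11.15, numpy 2.4.6, scipy 1.17.1, pandas 2.3.3 and pysam 0.24.0 were used.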

Additional observations from a re-analysis of the deposited data

How the results depend on the processing

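Each line is 1 pooled table, so no replicate could be left out, no control library was analysed here, and intervals cover counting error only. No paired analysis was possible because the columns carry no replicate numbers. Of the 87 values recomputed, 29 stayed within that error and 58 moved, and none of the observed over expected ratios passed to the other side of 1. The order of the lines did turn for some: the inner CDS share, the end-to-end ratio and U with an FDR below 0.05, and U at the base downstream. It also turned for the junction window and the number of genes with a differing share under the settings given below. Each pair below gives DoHH-2, then GM01953, and the causes were not tested. The GM01953 depth limits single genes and positions most.

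With each position counted once, the inner CDS share was 29.2% and 27.3%, codon position 1 had 1.14 and 1.22 times its expected counts, the end-to-end ratio was 0.594 and 0.356, the window 21 to 30 nt upstream of junctions was at 0.20 and 0.17, and U was at 1.65 and 1.78. With an FDR below 0.05, these were 22.5% and 25.9%, 1.23 and 1.27, 0.348 and 0.413, 0.044 and 0.29, and 2.04 and 1.85; positions with at least 2 counts were then 45.9% and 79.8%, and 5 genes had a share higher in DoHH-2 by over 20 points and 10 in GM01953. At more than 100 nt from the codons, the inner CDS share was 20.6% and 20.1%, the end-to-end ratio 0.535 and 0.425, positions with at least 2 counts 15.9% in DoHH-2, and 9 genes had a share higher in DoHH-2 and 11 in GM01953. Without exons of other genes the inner CDS share was 22.1% and 22.0%. With genes given equal weight, codon position 1 was at 1.17 in DoHH-2, the end-to-end ratio at 0.508 and 0.424, and the junction window at 0.17 and 0.16. Without the 10 genes with the most counts, codon position 1 was at 1.17 in DoHH-2. Matching on length alone gave 1.11 and 1.19 for codon position 1 and matching on the base and its neighbours 1.05 and 1.07. Matching on the base gave an end-to-end ratio of 0.520 in DoHH-2. The base downstream of the listed position was U at 1.82 in DoHH-2. At the GM01953 depth, DoHH-2 would have 5.0% of positions with at least 2 counts.

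The genes with a share higher in DoHH-2, then in GM01953, which were 14 and 11, were 90 and 162 with at least 20 mRNA counts, 3 and 2 with at least 100, and 1 and 3 past 30 points. The other 3 kinds of alternative were chosen after seeing the data. Leaving out bases before junctions gave 1.17 for codon position 1, 0.504 for the end-to-end ratio and 1.76 for U in DoHH-2, and 8 genes with a share higher in DoHH-2 and 10 in GM01953. Matching on 6 bases gave 1.02 and 1.03 for codon position 1. Genes without a junction gave end-to-end ratios of 0.498 and 0.301.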
